A study of Mus musculus with 3 samples.

Results

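A group of 9 genes of the route by which cells show peptides on major histocompatibility complex (MHC) class I was followed across mouse kidney cells. They were taken by symbol from the gene list of the count matrices, 9 of 33696 genes, and not by a threshold on a measured value. They are B2m (ENSMUSG00000060802), H2-K1 (ENSMUSG00000061232), H2-D1 (ENSMUSG00000073411), H2-T23 (ENSMUSG00000067212), Tap1 (ENSMUSG00000037321), Tap2 (ENSMUSG00000024339), Tapbp (ENSMUSG00000024308), Psmb8 (ENSMUSG00000024338) and Psmb9 (ENSMUSG00000096727), and each symbol matched 1 row. The study sequenced single cells from the kidneys of male mice in 3 libraries, after collagenase digestion and lysis of red cells. The first library came from young mice labelled 3/4 months old, another from mice of 20 months given vehicle (aged), and the last from mice of 20 months given D+Q (aged D+Q). D+Q usually stands for dasatinib with quercetin, a drug pair used to remove senescent cells. The strain, the number of mice behind a library, and the dose and schedule were not given in the sources used here. With 1 library per group no difference between groups could be tested, so every difference below describes 3 libraries, and every interval covers counting error only.

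Class I molecules are made of a heavy chain and the light chain beta-2 microglobulin, which together hold a short peptide at the cell surface for CD8 T cells and natural killer cells to read. Peptides are cut in the cytosol by the proteasome, of which the immunoproteasome is a form with exchanged catalytic subunits, then pumped into the endoplasmic reticulum by the TAP transporter and loaded onto the heavy chain with the help of tapasin. Interferons and NF-kB raise the genes of this route together, and in kidney the tubule epithelium is known to carry less class I at rest than the endothelium.

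The promoters are shown first because the genes are known to share control elements there. RefSeq promoter windows of the GRCm38.p6 build matched 8 of the 9 genes, all but Tap2. B2m lies on chromosome 2 and the other 7 on chromosome 17, where Tap1 and Psmb9 start back to back and share the bases between their starts. The windows printed are the 250 bases before the start site for B2m (chr2:122147437-122147686, + strand), H2-K1 (chr17:34000348-34000597, − strand, the more upstream of 2 annotated starts), H2-D1 (chr17:35262844-35263093, + strand) and H2-T23 (chr17:36032702-36032951, − strand), and the 225 bases between the starts of Psmb9 and Tap1 (chr17:34187331-34187555, + strand). Capitals mark matches, on either strand, to motifs chosen with these sequences in view. They are a short and a long interferon-type motif (GAA or GAAA, then any 2 bases, then GAAA), the kind of core that interferon regulatory factors bind, a short and a long NF-kB-type motif (GGG, then any 3 or any 4 bases, then TCCC), CCAAT (the NF-Y box) and TGACG (the core of the cyclic AMP element).
B2m: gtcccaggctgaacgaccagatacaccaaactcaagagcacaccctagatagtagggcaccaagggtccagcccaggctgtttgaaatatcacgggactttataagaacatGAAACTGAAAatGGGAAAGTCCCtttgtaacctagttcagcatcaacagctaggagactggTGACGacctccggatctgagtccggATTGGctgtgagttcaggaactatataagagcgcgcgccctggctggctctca
H2-K1: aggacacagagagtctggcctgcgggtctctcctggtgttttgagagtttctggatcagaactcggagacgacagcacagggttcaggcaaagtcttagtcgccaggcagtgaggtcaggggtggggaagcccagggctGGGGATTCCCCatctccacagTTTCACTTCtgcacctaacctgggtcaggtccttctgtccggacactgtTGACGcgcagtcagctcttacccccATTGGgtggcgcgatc
H2-D1: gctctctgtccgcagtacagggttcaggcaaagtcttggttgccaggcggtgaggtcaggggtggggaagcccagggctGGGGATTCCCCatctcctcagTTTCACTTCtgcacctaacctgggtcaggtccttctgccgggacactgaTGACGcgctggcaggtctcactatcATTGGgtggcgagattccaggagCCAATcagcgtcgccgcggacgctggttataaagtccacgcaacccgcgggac
H2-T23: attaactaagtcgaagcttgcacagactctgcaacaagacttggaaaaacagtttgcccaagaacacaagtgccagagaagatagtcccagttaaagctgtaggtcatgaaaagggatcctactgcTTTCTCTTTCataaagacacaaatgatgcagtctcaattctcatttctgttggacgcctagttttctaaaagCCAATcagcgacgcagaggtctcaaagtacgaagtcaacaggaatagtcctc
Tap1 and Psmb9: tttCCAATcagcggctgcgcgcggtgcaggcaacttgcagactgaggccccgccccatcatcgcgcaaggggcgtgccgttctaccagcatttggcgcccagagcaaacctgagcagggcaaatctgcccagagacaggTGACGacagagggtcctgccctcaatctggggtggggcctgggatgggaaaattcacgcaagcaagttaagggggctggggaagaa

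H2-K1 and H2-D1 matched in 166 of 190 aligned promoter bases (87.4%), and both carried the same short interferon-type and short NF-kB-type matches in the same order, the latter as 2 overlapping matches within GGGGATTCCCC. B2m carried the longer form of each, next to each other, and H2-T23 carried the long interferon-type motif alone of these. Over the 8 windows of 250 bases, the short interferon-type motif was in 2 against 6.31% of all 32851 promoters, the long one in 2 against 2.98%, the short NF-kB-type motif in 2 against 4.77% and the long one in 1 against 5.06%. CCAAT was in 7 of the 8 against 33.8% of all promoters, missing from Psmb8, and TGACG was in 5 against 17.8%. The windows of Tap1 and Psmb9 overlap, and their CCAAT and TGACG matches are the same sites counted for both genes. With H2-K1 and H2-D1 also alike and the motifs chosen with the sequences in view, the 8 windows are not independent and these counts are no test of enrichment. These are matches of letters, not measured binding. The coding sequences of H2-K1, H2-D1 and the neighbouring H2-Q genes are also close to each other, and the alleles of the mice may differ from the reference, so counts of these heavy chains are uncertain to the extent that reads were split or lost among them.

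The libraries held 8615 (young), 6027 (aged) and 8037 (aged D+Q) barcodes with a median of 2391, 1883 and 2299 UMIs and 24346733, 13944270 and 21058975 counts in all, so the aged library was the shallowest. After barcodes with over 50% mitochondrial counts and likely doublets were left out, 7687, 5700 and 7428 cells remained, and between 28 and 38 barcodes were shared by any pair of libraries. Cells were clustered with the class I genes left out and named from marker genes, and 13.4%, 18.0% and 11.7% of the cells stayed unnamed. The proximal tubule-like class held 4807, 3835 and 5049 cells, the endothelial-like class 539, 260 and 401, and the stromal-like class 144, 79 and 166. In the main setting no cluster could be named leukocytes, so cells were gated after the data had been seen by Ptprc and at least 2 other leukocyte markers. This gave 107, 126 and 101 cells. A leukocyte-like class was named at a clustering resolution of 2 (78, 111 and 79 cells) and when each cell was gated by its own markers (209, 261 and 216). No class I level was taken from either. In all 3 libraries these cells also carried endothelial markers, at a sum above that of their leukocyte markers. RNA of the proximal tubule was also found outside its own class: the summed level of 18 proximal tubule markers was 22468, 23644 and 22530 CPM (counts per 1000000 counts) in endothelial-like cells against 34009, 32844 and 35330 in proximal tubule-like cells, in the order young, aged and aged D+Q. The part of such RNA in the class I values was not tested.

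Proximal tubule-like cells had the lowest summed class I level of the 8 classes compared, and stromal-like, endothelial-like and leukocyte-gated cells the highest. Levels are CPM, relative to all counts of the class in the library, and classes are ordered by their mean over the 3 libraries. The sum of the 9 genes averaged 1339 CPM in stromal-like cells (range over libraries 966 to 1822), 1338 in endothelial-like cells (1105 to 1523) and 1219 in leukocyte-gated cells (1209 to 1225), and these 3 overlapped each other. Connecting tubule/principal cell-like cells averaged 806 CPM (587 to 925) and thick ascending limb-like cells 616 (579 to 654), also with overlap. Intercalated cell-like cells averaged 469 CPM (464.5 to 477), distal convoluted tubule-like cells 461 (402 to 538) and proximal tubule-like cells 399 (391 to 413), and neighbours in this order overlapped. The ranges of the first 3 classes lay above those of all 5 tubule classes.

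**Figure D1:**
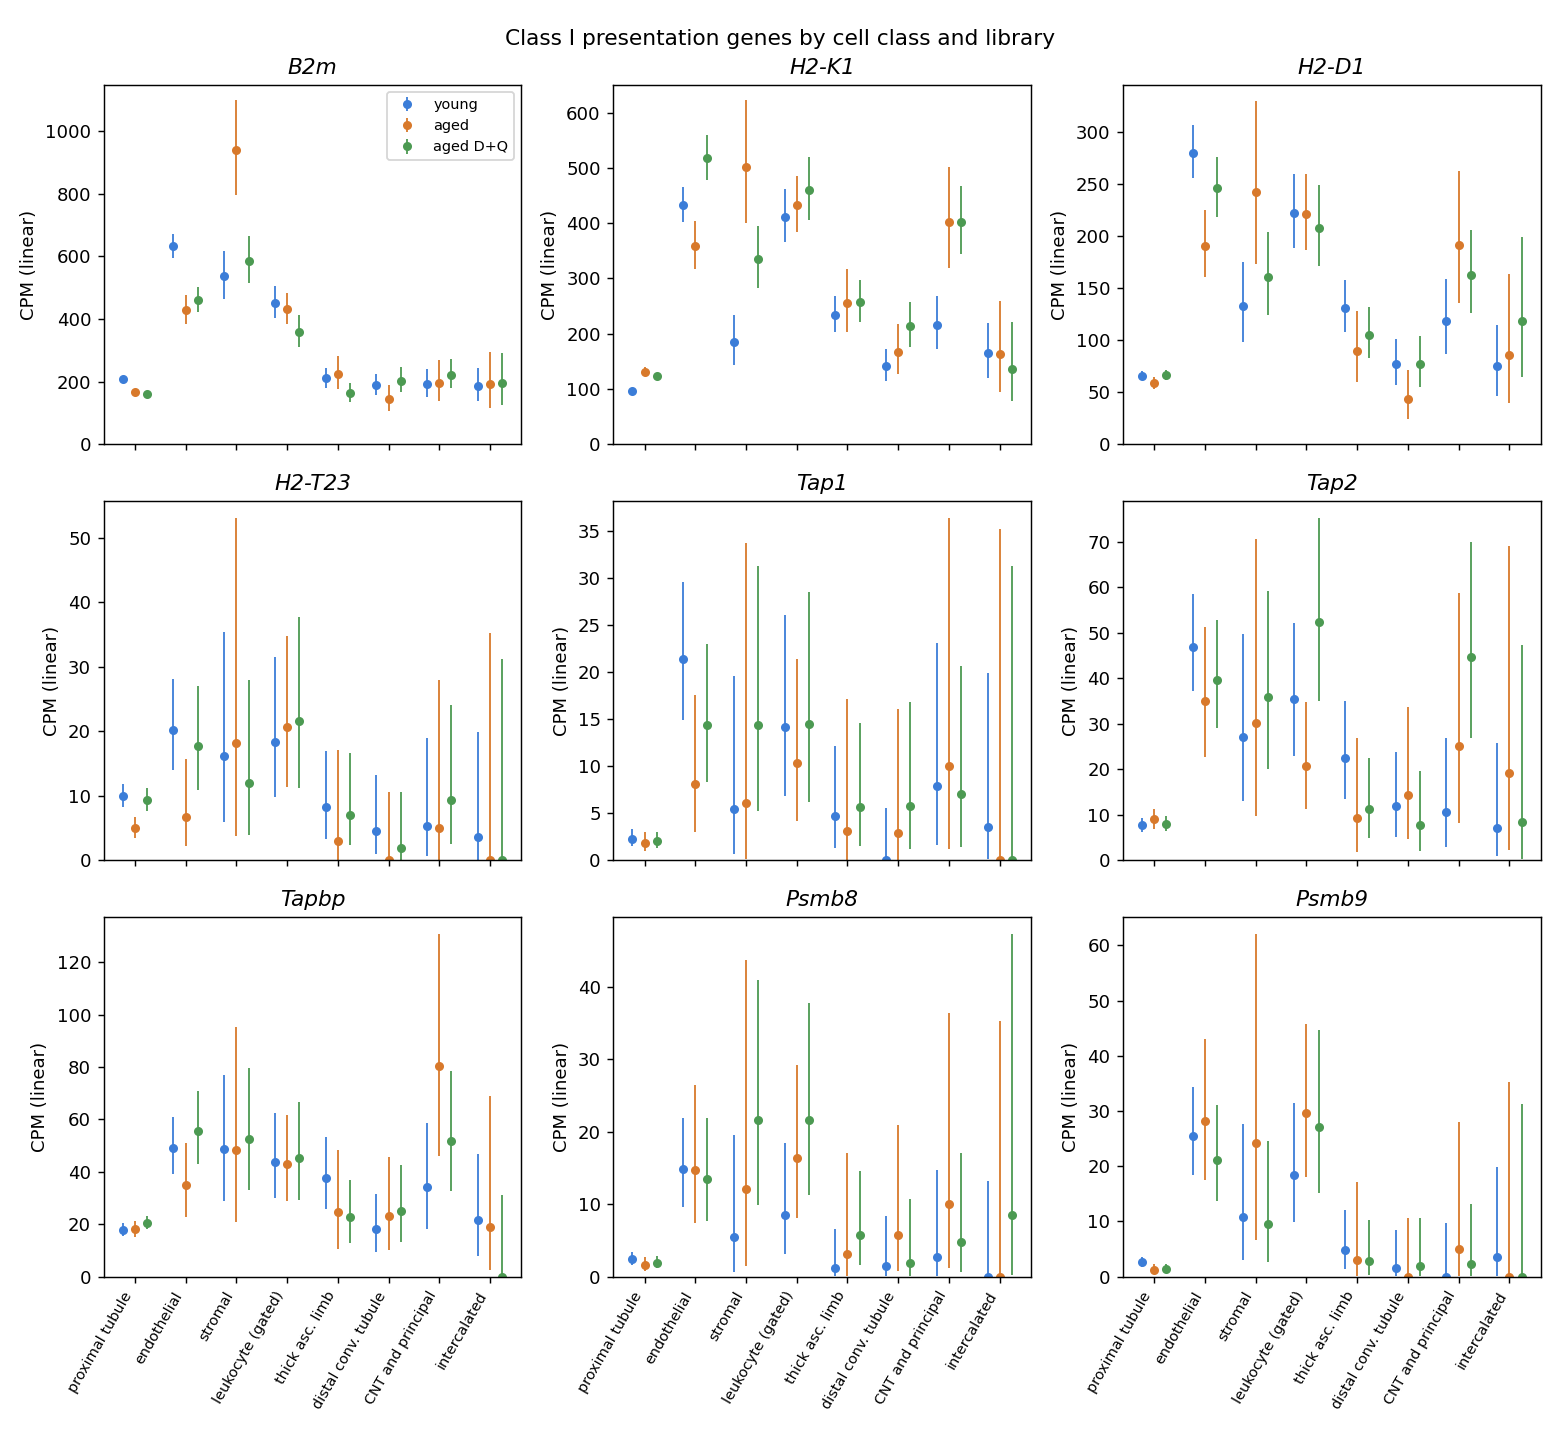
Level of each class I gene (CPM, linear axis that differs between panels) in each of 8 cell classes, with 1 point per library and its exact Poisson 95% interval. Endothelial-like, stromal-like and leukocyte-gated cells lie above proximal tubule-like cells for all 9 genes by the mean over libraries.

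The light chain gene B2m averaged 687 CPM in stromal-like, 507 in endothelial-like and 414 in leukocyte-gated cells, and between 178 and 203 CPM in the 5 tubule classes, whose neighbours overlapped. For the heavy chain gene H2-K1, which presents peptides to CD8 T cells, endothelial-like cells stood at 436 CPM, leukocyte-gated cells at 435 and stromal-like cells at 341. Within the tubule H2-K1 was graded, from 340.2 CPM in connecting tubule/principal cell-like cells and 249 in thick ascending limb-like cells to 174 in distal convoluted, 154 in intercalated and 117 in proximal cells. The range of the thick ascending limb (234 to 257 CPM) did not overlap that of the distal convoluted tubule (141 to 214), nor did that of intercalated cells (136 to 164) overlap that of the proximal tubule (96.7 to 131). H2-D1, the other classical heavy chain measured, followed the same order at its top, with 239, 217 and 178 CPM in endothelial-like, leukocyte-gated and stromal-like cells, and was at 65.5 CPM in distal convoluted and 63.5 CPM in proximal cells at its bottom. H2-T23 encodes Qa-1, a non-classical heavy chain that shows leader peptides of other class I chains to natural killer receptors. It was at 20.3 CPM in leukocyte-gated, 15.5 in stromal-like and 14.9 in endothelial-like cells, and at 8.08 CPM in proximal tubule-like cells, which for this gene came above the other tubule classes by their means. Its range (4.94 to 9.96 CPM) overlapped those of the connecting tubule/principal cell-like and thick ascending limb-like classes. The ranges of distal convoluted (0 to 4.51) and intercalated cells (0 to 3.57) lay lower but rest on very few counts. In distal convoluted cells these were 3, 0 and 1 in the young, aged and aged D+Q libraries. A count of 0 in these classes allows a level above 4.94 CPM, so they are not separated from the proximal tubule.

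For 4 of the 5 loading and cutting genes, endothelial-like cells stood further above proximal tubule-like cells, in fold, than for any of the chains. Tap1 and Tap2, which pair to form the peptide transporter, were on average 7.13-fold and 4.94-fold higher in endothelial-like than in proximal tubule-like cells, and Tapbp, which encodes tapasin, 2.49-fold higher. Psmb8 and Psmb9, catalytic subunits of the immunoproteasome, were 7.33-fold and 14.5-fold higher, against 2.85-fold for B2m, 3.74-fold for H2-K1, 3.76-fold for H2-D1 and 1.84-fold for H2-T23. The folds of Tap1, Psmb8 and Psmb9 rest on low proximal tubule-like means of 2.045, 1.96 and 1.72 CPM. These are under the 5 CPM asked of the ratios between libraries below. Psmb9 was at 25.03 CPM in leukocyte-gated, 24.9 in endothelial-like and 14.9 in stromal-like cells. The range of the lowest of these, stromal-like cells (9.58 to 24.2 CPM), lay above the thick ascending limb (2.84 to 4.72 CPM). Tapbp was the exception in its order, with the connecting tubule/principal cell-like class first at 55.5 CPM and overlapping the next 3 classes. Some classes had no count: Psmb9 had 0 counts in the young connecting tubule/principal cell-like cells, which allows up to 7.89 CPM (3 counts), and H2-T23 had 0 counts in aged distal convoluted tubule-like cells, which allows up to 8.67 CPM.

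**Figure D2:**
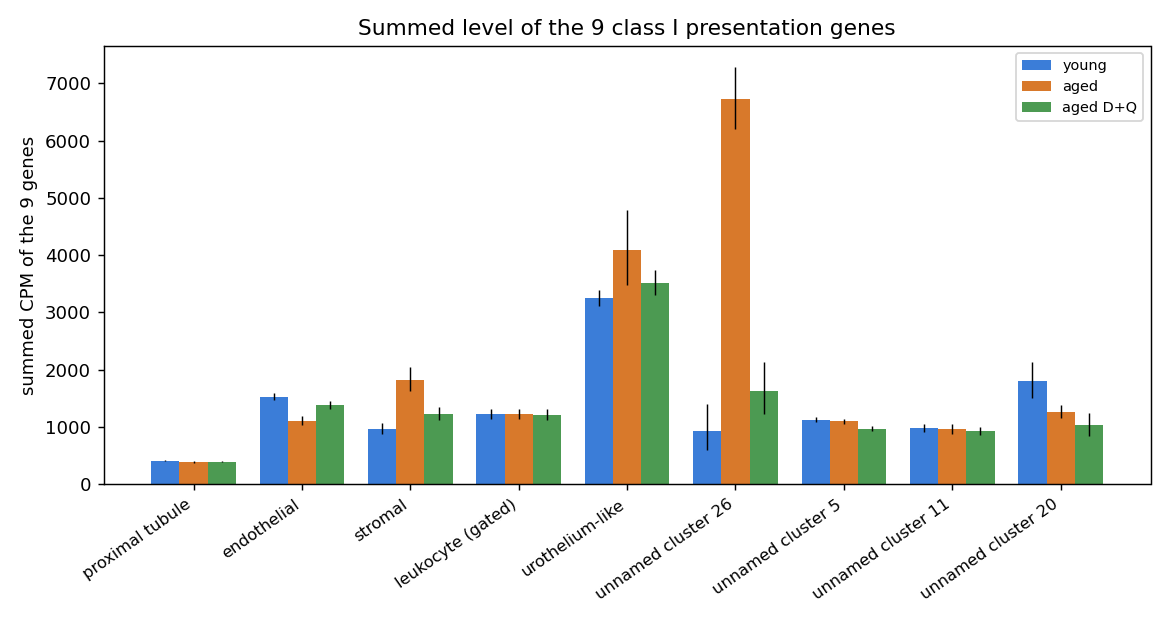
Summed level of the 9 class I genes (CPM) in 4 classes, in urothelium-like cells and in 4 unnamed clusters, with 1 bar per library and its exact Poisson 95% interval. Proximal tubule-like cells lie between 391 and 413 in all 3 libraries, while stromal-like cells spread from 966 to 1822.

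In proximal tubule-like cells the summed class I level differed little between the 3 libraries, while its parts stood in different orders. The sum was 412.9, 391 and 392 CPM in the young, aged and aged D+Q libraries. B2m had 208 CPM (exact Poisson 95% interval 199.9 to 216) in the young library, 165 (157 to 175) in the aged one and 159.9 (153 to 167) in the aged D+Q one. Both aged libraries were below the young one, with a log2 ratio of −0.33 for aged against young (interval −0.43 to −0.23) and −0.38 (−0.46 to −0.29) for aged D+Q against young, and they did not separate from each other (−0.05, −0.15 to 0.05). H2-K1 went the other way, with 96.7 CPM (91.2 to 102) in the young library, 131 (123 to 139) in the aged one and 123 (117 to 129) in the aged D+Q one. Its log2 ratio was 0.43 (0.31 to 0.56) for aged against young, 0.35 (0.24 to 0.46) for aged D+Q against young, and −0.09 (−0.20 to 0.03) for aged D+Q against aged. The ratio of H2-K1 to B2m counts therefore differed between the young library and both aged ones. H2-D1, its close relative, was not highest in the aged library: it was at 65.7, 58.6 and 66.2 CPM, with −0.16 (−0.33 to 0.00) for aged against young and 0.18 (0.01 to 0.34) for aged D+Q against aged.

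**Figure D3:**
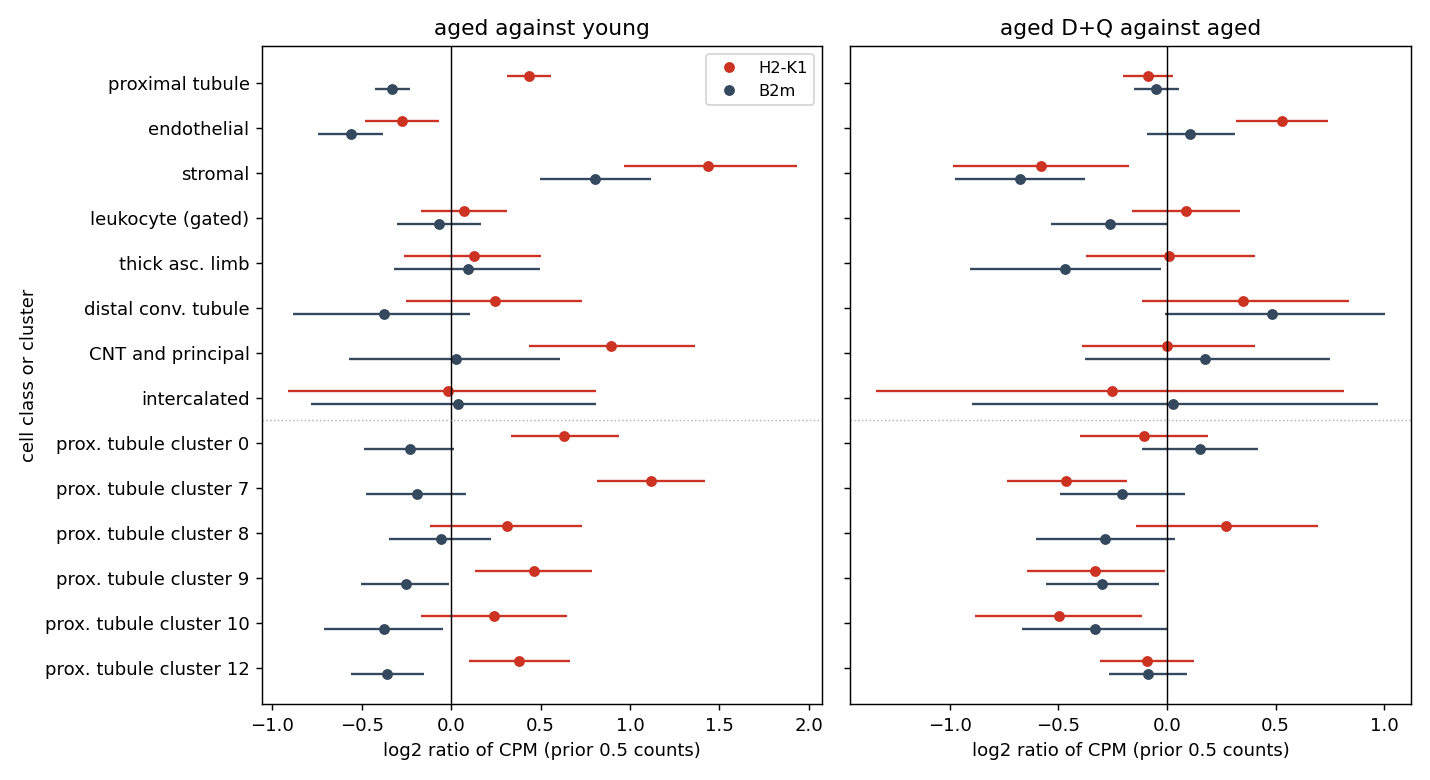
Log2 ratio of H2-K1 and of B2m with its 95% counting interval, for aged against young (left) and aged D+Q against aged (right), in 8 cell classes and, under the dotted line, in the 6 proximal tubule-like clusters with at least 30 cells in every library. For aged against young, H2-K1 lies above 0 and B2m below 0 in all 6 clusters.

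The directions for aged against young were also found inside the class, in the clusters that could be compared. The makeup of the class differed between the libraries. Cluster 1 had 786 young, 14 aged and 107 aged D+Q cells and was too small in the aged library to compare. Cluster 12 had 796, 1477 and 1812 cells. Of the 6 proximal tubule-like clusters with at least 30 cells in every library, H2-K1 was higher in the aged than in the young library in 6, with log2 ratios of 0.24 to 1.12, and the interval lay above 0 in 4. B2m was lower in 6 of 6 (−0.38 to −0.06), with the interval below 0 in 3. H2-K1 was lower in 5 of 6 clusters for aged D+Q against aged (−0.50 to 0.27), with the interval below 0 in 3, and for aged D+Q against young it was higher in 5 of 6 (−0.26 to 0.65). The widest gap for H2-K1 was in cluster 7, whose cells had a median mitochondrial share of 38.7%, at 193 CPM in the young library, 418 in the aged one and 303 in the aged D+Q one. Leaving that cluster out, or any other of the 15 alternatives tried for the class, left the H2-K1 ratio between 0.34 and 0.50. Leukocyte markers, 23 genes, summed to 109.6, 224 and 158 CPM in the proximal tubule-like cells of the young, aged and aged D+Q library, and urothelium markers, 11 genes, to 150.2, 14.6 and 46.9. Both lists thus moved between the libraries, and their part in the class I values was not tested.

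H2-T23 showed the largest log2 ratio of the 6 genes at the floor for ratios (at least 30 counts in all and 5 CPM on average) in the proximal tubule. It had 121 counts (9.96 CPM) in the young library, 38 counts (4.94 CPM) in the aged one and 116 counts (9.33 CPM) in the aged D+Q one. The aged library was alone in being low: the log2 ratio was −1.0 (−1.58 to −0.48) against young, aged D+Q against aged was 0.91 (0.38 to 1.49), and aged D+Q against young was −0.09 (−0.47 to 0.29). Since the first 2 of these ratios share the aged library, its low value enters both. H2-T23 was at the floor in 3 of the 6 clusters, on 6 to 9 aged counts each. Aged was below young in these 3 (−1.40 to −0.13) and aged D+Q was above aged (0.03 to 1.67), with intervals clear of 0 in 1 and 2 of them. H2-T23 was the only class I gene of the 6 at the floor to differ by at least 1.5-fold in the class. That is 1 of 6 lower and 0 of 6 higher for aged against young, where 3.98% of all 10772 genes were lower and 4.71% higher. For aged D+Q against aged it is 1 of 6 higher and 0 of 6 lower, where 2.01% of all genes were higher and 2.16% lower, and for aged D+Q against young 0 of 6, where 2.81% were higher and 3.04% lower.

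For the transporter subunit Tap2 and for tapasin no ratio was clear of 0 in the proximal tubule. Tap2 was at 7.65, 8.97 and 7.96 CPM and Tapbp at 17.8, 18.1 and 20.4 CPM in the young, aged and aged D+Q libraries, with every ratio interval including 0. Tap1 (1.82 to 2.30 CPM), Psmb8 (1.56 to 2.39 CPM) and Psmb9 (1.17 to 2.55 CPM) were below that floor and were highest in the young library in each case. The median log2 ratio of the 6 genes at the floor was −0.07 for aged against young, 0.06 for aged D+Q against aged and 0.03 for aged D+Q against young, beside 0.06, −0.05 and 0.02 over all genes.

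**Figure D4:**
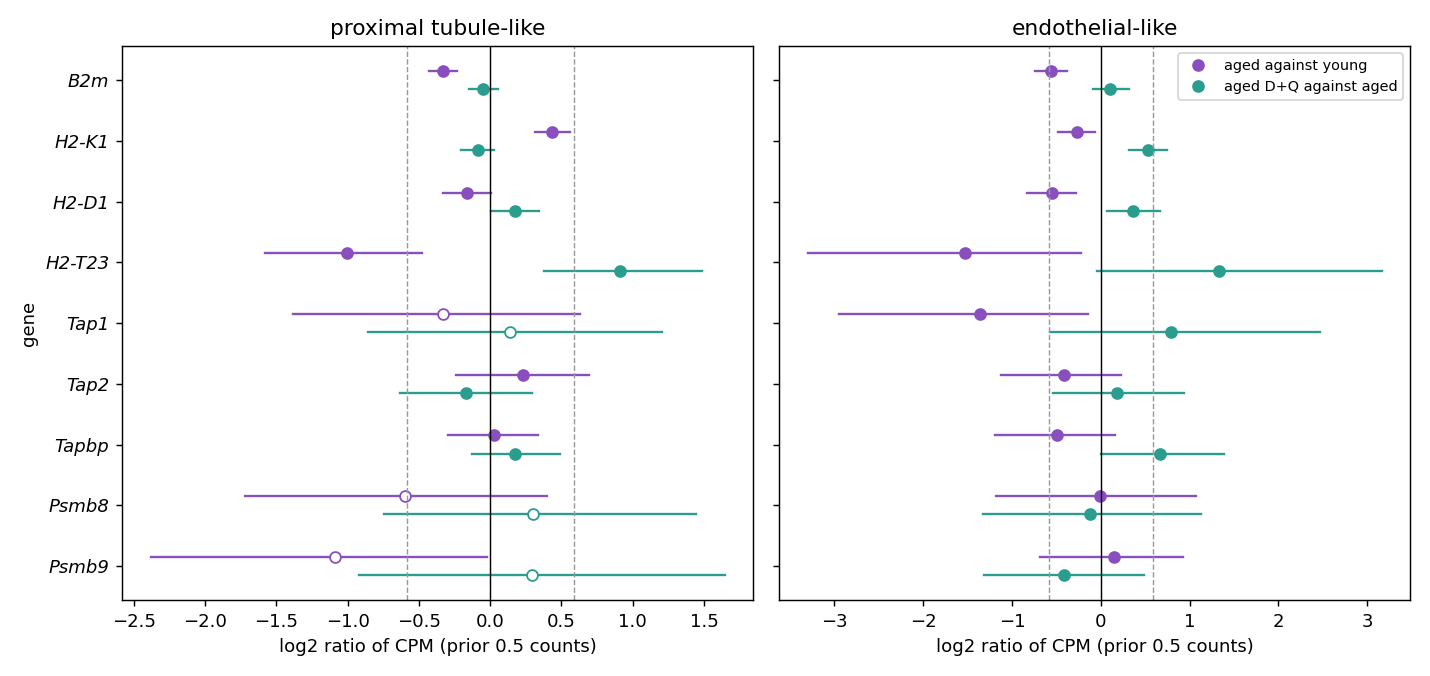
Log2 ratio of each class I gene in proximal tubule-like (left) and endothelial-like cells (right), with its exact conditional binomial 95% interval (counting error only), for aged against young and for aged D+Q against aged. Dashed lines mark 1.5-fold, open points genes below the floor; for aged against young H2-K1 lies above 0 on the left and below 0 on the right.

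In endothelial-like cells most of the class I genes were lowest in the aged library. B2m was at 632 CPM (595 to 671) in the young library, 428 (383 to 478) in the aged one and 462 (424 to 502) in the aged D+Q one. Its log2 ratio was −0.56 (−0.75 to −0.38) for aged against young and 0.11 (−0.09 to 0.31) for aged D+Q against aged, so both aged libraries were low. H2-K1 was at 433 (402 to 466), 358 (317 to 404) and 517 (477 to 559.9) CPM, and here the aged D+Q library was the highest. The H2-K1 ratio was −0.27 (−0.48 to −0.07) for aged against young, 0.53 (0.32 to 0.74) for aged D+Q against aged and 0.26 (0.10 to 0.41) for aged D+Q against young. H2-D1, at 279.9, 191 and 246 CPM, stood at −0.55 (−0.84 to −0.28) and 0.36 (0.07 to 0.66) for the first 2 of these comparisons. H2-T23 had 34, 5 and 21 counts (20.2, 6.71 and 17.7 CPM) and Tap1 36, 6 and 17 counts (21.4, 8.06 and 14.4 CPM), so the aged values of these genes rest on few molecules. Their log2 ratios for aged against young were −1.53 (−3.30 to −0.22) and −1.36 (−2.94 to −0.15).

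Tap2 was at 46.9, 34.9 and 39.7 CPM and Tapbp at 49.2, 34.9 and 55.7 CPM in the young, aged and aged D+Q endothelial-like cells, again lowest in the aged library, with intervals that include 0. The immunoproteasome subunits had wide intervals. Psmb8 was at 14.8, 14.8 and 13.5 CPM (aged against young −0.01, −1.18 to 1.07), and Psmb9 at 25.5, 28.2 and 21.1 CPM (0.14, −0.68 to 0.93). For aged against young, 8 of the 9 genes had a ratio below 0, the interval was below 0 for 5, and 2 were at least 1.5-fold lower with 0 higher, where 11.3% of all 10737 genes were lower and 9.61% higher. The median of the 9 was −0.49, beside 0.02 over all genes. For aged D+Q against aged, 7 of 9 had a ratio above 0, and 3 (H2-T23, Tap1 and Tapbp) were at least 1.5-fold higher, each with an interval that includes 0, and 0 lower, where 13.1% of all genes were higher and 11.3% lower. The median was 0.36, beside −0.01 over all genes, and both comparisons share the aged library. For aged D+Q against young the median was −0.19 and 0 of 9 differed by at least 1.5-fold, where 7.12% of all genes were higher and 8.03% lower.

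These endothelial values depended on which cells entered the class. With likely doublets kept, the median for aged D+Q against aged was 0.03 in place of 0.36, and at a clustering resolution of 2, which left 17 aged cells, it was −0.29 over 5 genes. At that resolution H2-K1 was at −0.29 and H2-D1 at −0.62 for aged D+Q against aged, the other sign from the values above. H2-K1 for aged D+Q against young was then −0.27, and H2-D1 for aged against young was −0.001. The H2-K1 ratio for aged against young ran from −0.32 to 0.02 over 13 alternatives, while that of B2m stayed below 0 in 13 of 13 (−0.62 to −0.09). The 14 endothelial markers themselves summed to 5908, 4014 and 7205 CPM in the young, aged and aged D+Q cells of the class, lowest where the class I genes were lowest. Leukocyte markers summed to 253, 354 and 309.7 CPM and urothelium markers to 134, 8.06 and 47.2 CPM there. The part of these differences in the class I values was not tested.

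Stromal-like cells, a class named from markers of fibroblasts, pericytes and smooth muscle, had their highest class I levels in the aged library, where endothelial-like cells had their lowest. B2m was at 536 CPM (464 to 616) in the young library, 938 (796 to 1098) in the aged one and 586 (515 to 665) in the aged D+Q one. H2-K1 was at 184 (143 to 233), 502 (400.1 to 623) and 335 (282 to 396) CPM, and H2-D1 at 133, 242 and 160.4 CPM. The aged library was the highest for all 3 genes. Aged against young, the log2 ratio was 1.44 (0.97 to 1.93) for H2-K1, 0.81 (0.49 to 1.12) for B2m and 0.86 (0.23 to 1.5) for H2-D1. Aged D+Q against aged, it was −0.58 (−0.99 to −0.17), −0.68 (−0.97 to −0.38) and −0.59 (−1.18 to 0.01) in the same order, and both comparisons share the aged library. Against young, the aged D+Q library was still higher for H2-K1 (0.86, 0.44 to 1.3), while B2m (0.13, −0.15 to 0.41) and H2-D1 (0.27, −0.28 to 0.84) had intervals that include 0.

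Tap2 (27.1, 30.3 and 35.9 CPM) and Tapbp (48.7, 48.4 and 52.7 CPM) differed little in value in stromal-like cells, with wide intervals (−1.74 to 1.84 for Tap2, −1.42 to 1.26 for Tapbp, aged against young), and the other 4 genes had too few counts for a ratio. Of the 5 class I genes at the floor, 3 were at least 1.5-fold higher and 0 lower for aged against young, where 15.7% of all 5869 genes were higher and 15.6% lower. For aged D+Q against aged, 2 of 5 (B2m and H2-D1) were at least 1.5-fold lower and 0 higher, where 14.2% of all genes were lower and 15.4% higher, and H2-K1 was just short of that fold. H2-D1 was past it in 2 of 5 alternatives. For aged D+Q against young, 1 of 5 was higher, where 11.4% of all genes were. For aged against young, 5 alternatives chosen after the data had been seen gave 1.07 to 1.48 for H2-K1, 0.62 to 0.89 for B2m and 0.75 to 1.01 for H2-D1. No value came from keeping likely doublets, from a resolution of 0.5 or from clustering each library alone. Under these the class was missing from the aged and aged D+Q libraries. Aged D+Q against young, H2-K1 was 0.27 when each cell was gated by its own markers. Leukocyte markers in the class summed to 506, 569 and 539 CPM, with 11, 12 and 8 of the 23 at 0 counts, and stromal markers to 5923, 5713 and 5382 CPM in the same order of libraries. The leukocyte markers were thus also lowest in the young and highest in the aged library, and their part was not tested. The class excludes the unnamed cluster 26, whose class I levels were high in the aged library.

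In the connecting tubule/principal cell-like class H2-K1 was higher in both aged libraries alike. It was at 216 CPM (172 to 268) in the young library, 402 (319 to 501) in the aged one and 403 (345 to 468) in the aged D+Q one, a log2 ratio of 0.89 (0.44 to 1.36) for aged against young and 0.90 (0.51 to 1.3) for aged D+Q against young. H2-D1 was at 118, 191 and 162 CPM (aged against young 0.68, 0.03 to 1.35) and Tapbp at 34.2, 80.4 and 51.8 CPM (1.19, 0.09 to 2.41). B2m was at 192, 196 and 221 CPM. Of the 4 genes at the floor, 3 were at least 1.5-fold higher and 0 lower for aged against young, where 13.9% of all 5555 genes were higher and 17.1% lower, and 1 was higher for aged D+Q against young, where 12.7% were. The median mitochondrial share of these cells was 7.86%, 23.5% and 18.6%, so it moved with H2-K1, and its part was not tested. With likely doublets kept, the ratio for aged against young was 0.41 for H2-K1 and 0.33 for H2-D1, both then under 1.5-fold.

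The remaining tubule classes gave smaller counts. In thick ascending limb-like cells H2-K1 was at 234, 255 and 257 CPM, and B2m was at 210.1, 224 and 162 CPM. There 2 of 5 genes were at least 1.5-fold lower for aged against young, where 11.6% of all genes were: Tap2 with 3 against 19 counts (−1.21, −3.68 to 0.48) and Tapbp with 8 against 32 (−0.60, −1.95 to 0.53). For aged D+Q against young 2 of 5 were also lower, where 8.19% of all genes were. In distal convoluted tubule-like cells H2-K1 was at 141, 168 and 214 CPM, a log2 ratio of 0.60 (0.19 to 1.01) for aged D+Q against young. H2-D1 there was at 76.7, 43.4 and 76.5 CPM, lowest in the aged library. In intercalated cell-like cells H2-K1 was at 164, 162 and 136 CPM and B2m at 186, 191 and 195 CPM, which overlapped within their counting intervals.

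Leukocyte-gated cells had nearly the same summed class I level in the 3 libraries. The sum was 1224, 1225 and 1209 CPM, with B2m at 451, 431 and 359 CPM, H2-K1 at 412, 433 and 460.0 CPM and H2-D1 at 222, 221 and 208 CPM. B2m was lower in the aged D+Q than in the young library (−0.33, −0.59 to −0.07). Of the 7 genes at the floor, 1 (Psmb9, at 18.4, 29.6 and 27.1 CPM) was at least 1.5-fold higher and 1 (Tap2) lower for aged against young, where 9.2% of all 9394 genes were higher and 10.3% lower. Tap2 was at 35.4, 20.7 and 52.3 CPM, the 1 gene of 7 at least 1.5-fold higher for aged D+Q against aged (1.3, 0.37 to 2.37), where 9.71% of all genes were. The gated cells also carried endothelial markers (14 genes) at 2789, 2232 and 2976 CPM. Their leukocyte markers (23 genes) summed to less, 1673, 1728 and 2076 CPM. Their median depth was 3955, 3974 and 3729 UMIs, above that of proximal tubule-like and endothelial-like cells. The part of endothelial RNA in these values was not tested.

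Over all kept cells the balance of classes enters the levels. B2m was at 309 CPM in the young library, 265 in the aged one and 229.8 in the aged D+Q one, H2-K1 at 224, 236 and 219.9 CPM, and H2-T23 at 12.8, 7.33 and 11.05 CPM. For aged against young, 1 of 9 genes (H2-T23, −0.80) was at least 1.5-fold lower, where 3.43% of all 12012 genes were. Aged D+Q against aged, 1 was higher (H2-T23, 0.59; 1.5% of all genes) and 1 lower (Psmb9, −0.68; 1.76% of all genes). Proximal tubule-like cells were 62.5%, 67.3% and 68.0% of the cells but held 31.2%, 33.4% and 40.2% of the class I counts. Endothelial-like cells were 7.01%, 4.56% and 5.40% of the cells with 15.95%, 9.13% and 13.6% of those counts. Urothelium-like cells were 1.99%, 0.263% and 1.05% of the cells with 12.3%, 1.74% and 8.15% of them. The unnamed cluster 5 was 7.60%, 8.28% and 5.24% of the cells with 21.2%, 24.95% and 13.95%. Without cluster 26, an unnamed cluster of 8, 35 and 10 cells that held 0.143%, 6.68% and 0.446% of the class I counts, the H2-K1 ratio for aged against young over all cells went from 0.08 to −0.01 and that of B2m from −0.22 to −0.31, and Psmb9 for aged D+Q against aged was −0.54, no longer 1.5-fold lower.

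Detection per cell was compared after each cell was thinned to 1000 UMIs, since the aged library was shallower. In proximal tubule-like cells at least 1 class I UMI was found in 32.3% of the young (Clopper-Pearson 95% interval 31.0 to 33.7), 30.4% of the aged (29.0 to 31.9) and 31.5% of the aged D+Q cells (30.2 to 32.8), against 58.7%, 48.7% and 56.0% before thinning. The intervals overlapped at 1000 UMIs, but at 500 UMIs the young share (19.6%, 18.5 to 20.8) lay above the aged one (16.9%, 15.8 to 18.2). B2m was found in 18.6%, 15.1% and 15.03% of the cells and H2-K1 in 9.11%, 11.7% and 12.0%. As in their levels, the young library was highest for B2m and lowest for H2-K1. In endothelial-like cells any class I UMI was found in 67.2%, 56.2% and 68.3% (before thinning 91.5%, 84.2% and 89.8%), B2m in 39.2%, 29.2% and 34.4%, and H2-K1 in 31.4%, 29.6% and 37.2%. No class that should lack class I was at hand as a background, since nearly all nucleated cells carry it. Median depth was 2359, 1801 and 2302 UMIs in proximal tubule-like and 2638, 2322 and 2478 in endothelial-like cells.

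**Figure D5:**
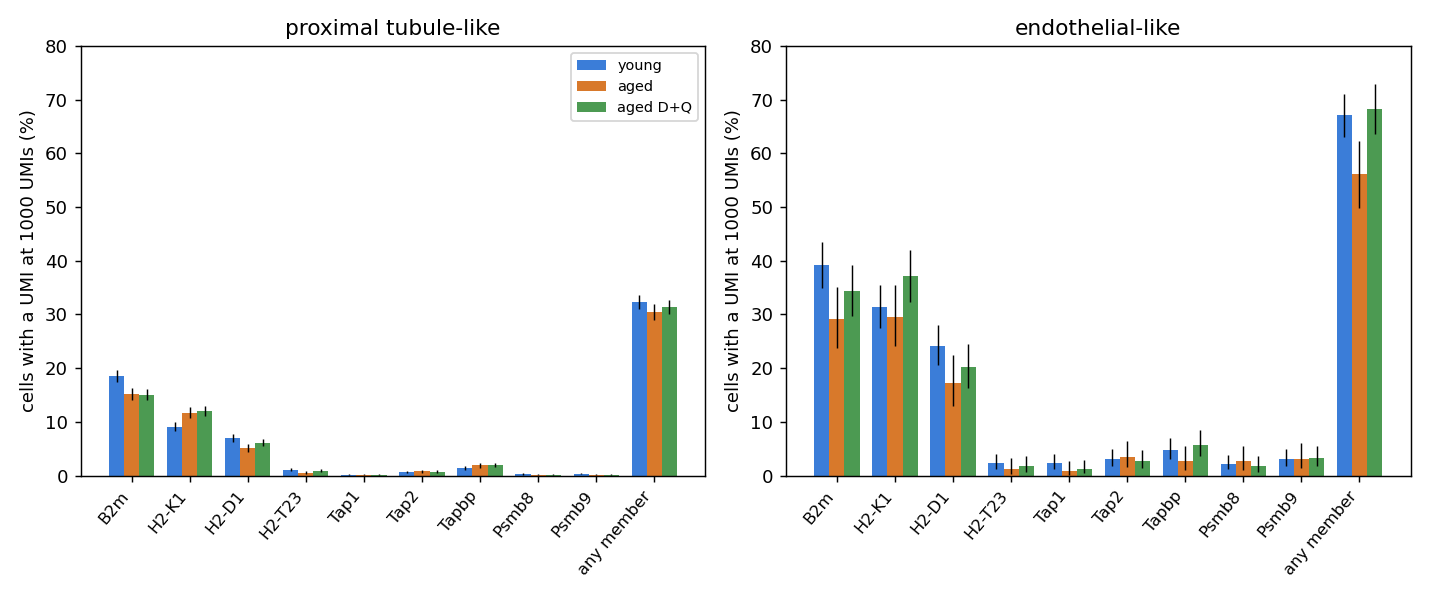
Share of proximal tubule-like (left) and endothelial-like cells (right), in %, with at least 1 UMI of each class I gene and of any of the 9, after thinning to 1000 UMIs, with Clopper-Pearson 95% intervals, 1 bar per library. In proximal tubule-like cells the young library is highest for B2m (18.6%) and lowest for H2-K1 (9.11%).

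The rest of the pathway was read from lists of genes at the same floor. In the aged against the young proximal tubule, 0 of 8 genes of peptide loading and endoplasmic reticulum processing (such as calreticulin and ERp57) differed by at least 1.5-fold, with a median log2 ratio of −0.13, and 0 of 5 immunoproteasome partners and proteasome activators, with −0.33. Of the 11 interferon-stimulated genes with no role in presentation that were at the floor (31 in the list), 1 was higher and 3 lower, with a median of −0.12. Over all genes in this comparison 4.71% were higher and 3.98% lower. Of the interferon-stimulated genes in endothelial-like cells, 0 of 22 were higher and 13 lower for aged against young (median −0.74), where 9.61% of all genes were higher and 11.3% lower. Of the same 22, 8 were higher and 1 lower for aged D+Q against aged (median 0.36), where 13.1% of all genes were higher and 11.3% lower, and for aged D+Q against young 0 were higher and 5 lower (median −0.17), where 7.12% and 8.03% were. The first 2 comparisons share the aged library. Ifi44, an interferon-induced gene, was at 155, 72.5 and 140.1 CPM in the young, aged and aged D+Q endothelial-like cells, a log2 ratio of −1.09 (−1.55 to −0.67) for aged against young. In the proximal tubule, Iigp1, an interferon-induced GTPase, was at 8.06, 5.98 and 2.90 CPM, lowest in the aged D+Q library (aged D+Q against young −1.47, −2.07 to −0.91). For the other lists in the endothelial-like class, aged against young, 0 of 8 loading genes were higher and 1 lower (median −0.34), and 0 of 5 partners and activators higher and 1 lower (0.06). Of other class I and class I-like heavy chains, 0 of 2 at the floor differed by that fold in the proximal tubule (median −0.18), and 1 of 4 was higher and 1 lower in endothelial-like cells (−0.20). Of other partners of B2m, 0 of 1 differed in the proximal tubule (−0.49) and 1 of 3 was lower in endothelial-like cells (−0.57). Of 11 further core subunits of the proteasome, 0 differed in the proximal tubule (−0.03) and 2 were lower in endothelial-like cells (−0.20). Constitutive catalytic subunits of the proteasome did not differ by 1.5-fold in either class for aged against young (0 of 3, medians −0.15 and 0.21). Of the 9 receptors that read class I on leukocytes, 0 were at the floor in either class.

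Over the 21 sums of 7 classes in 3 libraries, the class I genes went together across classes. The Pearson correlation of log2(CPM + 1) with the mean of the other 8 was 0.86 for Psmb9, 0.84 for H2-K1, 0.83 for H2-D1, 0.81 for Tap1, 0.80 for B2m, 0.79 for Tap2, 0.73 for H2-T23, 0.65 for Psmb8 and 0.63 for Tapbp. Single pairs ranged widely, from 0.22 for Psmb8 with Tapbp to 0.86 for H2-K1 with H2-D1. Of 11994 other genes at the floor, the 6 closest to the mean of the 9 were Nuak1 (0.93), Notch4 (0.92), Tspan9 (0.92), AU020206 (0.92), Prickle2 (0.92) and Ehd3 (0.91). Notch4, an endothelial Notch receptor, was at 45.1, 26.9 and 54.0 CPM in endothelial-like and at 3.29, 2.34 and 2.01 CPM in proximal tubule-like cells. Ehd3 is itself an endothelial marker of the list used to name cells. The sums share libraries, depth and RNA of the proximal tubule, so these correlations are a description of the class differences.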

How the data were processed

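Kidney cells of 3 libraries, 1 per group, were analysed from the deposited matrices of raw UMI counts that the authors deposited, from MobiCube 3′ libraries per the labels' protocols. Neither the aligner nor how barcodes were picked was given in the sources used here, and GRCm39 and mm10 are both named, without roles, per the submitters' processing notes. Barcodes over 50% mitochondrial counts (385, 82 and 149) were left out. Scrublet's automatic threshold called 0, 1 and 0 doublets, so barcodes above the score quantile of 0.8% per 1000 barcodes were left out instead (543, 245 and 460). Cells were clustered without the class I genes on 2000 variable genes, 30 principal components and 15 neighbours at a Leiden resolution of 1, and named where at least 3 markers of a class supported it. Names were rebuilt and may differ from the study's. For each library and class the counts were added up and scaled to CPM. A prior of 0.5 counts entered each log2 ratio, given for genes with 30 counts in all and 5 CPM on average; "at the floor" means these limits were met. Intervals are exact 95% intervals (Poisson, conditional binomial, Clopper-Pearson) for counting error alone, and a count of 0 allows up to 3 counts. The ratio code was tested on simulated data. The alternatives concerned the mitochondrial limit, doublets, resolution, joint or separate clustering, gating, scaling, the floor, the prior, thinning and clusters left out, and leaving out replicates was not possible with 1 library per group. Genes named beside the 9 were those of each list whose ratio interval excluded 1.5-fold, up to 3 per list, and the 6 most correlated genes. A list of regulators of class I genes is not reported here. The 9 genes and all lists were chosen with earlier results of these data known. Clustering used scanpy 1.11.5 with igraph 0.11.9 and scikit-learn 1.9.0, intervals scipy 1.17.1, tables numpy 2.4.6 and pandas 2.3.3, and figures matplotlib 3.10.9, all under Python 3.11.15, and edgeR 4.0.16 in R 4.3.3 gave TMM scaling as an alternative.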

Additional observations from a re-analysis of the deposited data

Results flagged for a closer look

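Several class I genes differed between the libraries in opposite directions in different cell classes, each with a counting interval clear of 0. B2m, aged against young, had a log2 ratio of −0.56 in endothelial-like, −0.33 in proximal tubule-like and 0.81 in stromal-like cells. H2-D1, aged against young, was at −0.55 in endothelial-like, 0.68 in connecting tubule and principal cell-like and 0.86 in stromal-like cells. H2-K1, aged against young, was at −0.27 in endothelial-like, 0.43 in proximal tubule-like, 0.89 in connecting tubule and principal cell-like and 1.44 in stromal-like cells. H2-K1, aged D+Q against aged, was at 0.53 in endothelial-like and −0.58 in stromal-like cells. At a clustering resolution of 2, which left 17 aged endothelial-like cells, the endothelial H2-K1 ratios were 0.02 for aged against young and −0.29 for aged D+Q against aged. With 1 library per group these differences between classes were not tested, and the classes of a library share its depth and its free RNA.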

How the results depend on the processing

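Of 886 values under an alternative, 848 stayed within the counting interval of the ratio in the main setting. All were ratios of single class I genes except 13, which were medians over class I genes in endothelial-like cells for aged D+Q against young. Genes below the floor were included, and their intervals are wide, so staying within them says little. Leaving out the floor cannot change the ratio of a single gene, so those values stayed within by construction. That setting is counted among the 13 or 15 alternatives of the endothelial-like and proximal tubule-like classes. The sign differed in 66, of which 57 were ratios under 1.5-fold whose interval includes 0. The other 9 were Psmb8 for aged against young in the proximal tubule (0.027 when each cell was gated by its own markers), H2-K1 for aged against young over all cells (−0.0077 without cluster 26), and, in endothelial-like cells at resolution 2, H2-K1 in all 3 comparisons (0.022 for aged against young, −0.29 for aged D+Q against aged, −0.27 for aged D+Q against young) and H2-D1 for aged D+Q against aged (−0.62). The rest were, for aged D+Q against aged in endothelial-like cells, Tap1 (−0.10 with doublets kept, −1.75 at resolution 2) and Tapbp (−0.013 at resolution 2). The endothelial median for aged D+Q against aged was 0.028 with doublets kept and −0.29 at resolution 2, where 17 aged cells remained. The proximal tubule median was 0.21 for aged D+Q against aged without clusters 1 and 12, a choice made after seeing the data, and −0.33 for aged against young with no floor, where genes of few counts enter. The share of proximal tubule-like cells with any class I UMI was 58.7%, 48.7% and 56.0% in the young, aged and aged D+Q libraries unthinned, and 19.6%, 16.9% and 17.6% thinned to 500 UMIs, where the young interval (18.5 to 20.8) and the aged one (15.8 to 18.2) did not overlap. In the proximal tubule, H2-T23 stayed at least 1.5-fold lower for aged against young in 15 of 15 alternatives (−1.06 to −0.72) and H2-K1 stayed between 0.34 and 0.50. In endothelial-like cells, H2-T23 stayed past that fold for aged against young in 12 of 13 alternatives and Tap1 in 10 of 13, and for aged D+Q against aged H2-T23 in 11, Tap1 in 6 and Tapbp in 8 of 13. With likely doublets kept and at a resolution of 0.5, no stromal-like cells were named in any library. When each library was clustered alone, none were named in the aged or aged D+Q library. These alternatives therefore gave no value for that class. No paired analysis was possible because each group has 1 library.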

Other observations

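The highest class I levels were in cells outside the classes compared. Urothelium-like cells, of which there were 153 young, 15 aged and 78 aged D+Q, joined 2 clusters, of which cluster 21 had 55 young, 0 aged and 2 aged D+Q cells, so the libraries differ in their makeup. They had a summed level of the 9 genes of 3246, 4097 and 3518 CPM. H2-K1 was at 1468, 1592 and 1436 CPM there, B2m at 803, 1096 and 998 CPM, and H2-D1 at 672, 1122 and 702 CPM.

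Cluster 26, an unnamed cluster led by genes that include Slpi, C3, Igfbp6, Gbp2, Muc16 and Upk3b, had 8 cells in the young library, 35 in the aged one and 10 in the aged D+Q one. Its summed class I level was 931 CPM for young (exact Poisson 95% interval 590.4 to 1397), 6728 (6201 to 7288) in the aged one and 1634 (1227 to 2132) in the aged D+Q one. B2m was at 202, 2515 and 242 CPM on 5, 225 and 8 counts, and H2-K1 at 324, 2235 and 726 CPM. Tap1 and Psmb8 had counts in the aged cells alone, at 156 and 134 CPM. With 8 young and 10 aged D+Q cells, 0 counts in those libraries set only a loose upper limit. Ptprc had 0 counts in the cluster in all 3 libraries. Most of its cells came from 1 library, and its own leading genes also differed between the libraries. C3 was at 486, 4649 and 1150 CPM and Upk3b at 202.5, 1129 and 484 CPM, while Muc16 was at 405, 469 and 1150 CPM. Stromal markers summed to 2592, 7153 and 1724 CPM there. Whether its cells are of the same kind in the 3 libraries was not tested.

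Cluster 5 was the largest unnamed cluster with class I levels near those of the endothelium. It was led by genes that include the leukocyte markers Dock2 and Ptprc, and it also carried endothelial markers. B2m was at 433, 361 and 301 CPM there and H2-K1 at 363, 404 and 362 CPM. The order of B2m over the libraries was that of the proximal tubule and of leukocyte-gated cells.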
